A study of Mus musculus with 12 samples.

Results

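Gonocytes of the mouse testis were compared between the E16.5 embryo and the day of birth (P0), 2 stages of the period in which male germ cells do not divide. The comparison used 6 of the 12 RNA sequencing libraries of the series, numbered 1, 3 and 4 at each stage. Of 55487 genes in the table, it covered the 21376 that reached a normalized count of 10 in 3 or more of the 6. The labels describe all cells as male germ cells from the testis of Mvh-Venus transgenic mice, in which a fluorescent protein driven by the Mvh (Ddx4) gene marks germ cells. Titles and source names call both stages WT. The genotype tag instead reads Morc1 (-/-) for the 3 E16.5 libraries and Morc1 (+/-) for the 3 P0 libraries, so that stage and tag cannot be told apart. The labels do not say whether libraries came from separate animals, whether animals were pooled or how cells were sorted, so p-values measure the spread between these libraries, which may be technical.

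Male germ cells of the fetal testis stop dividing in midgestation and stay in arrest until after birth, when they resume division and found the spermatogonial population. During the arrest they silence the pluripotency genes of the primordial germ cell, rebuild DNA methylation across the genome and run the piRNA pathway, in which PIWI proteins loaded with small RNAs direct the silencing of transposons. The fetal germ cells rest against Sertoli cells, the somatic cells of the testis cords, with Leydig cells, stroma, vessels and blood-derived cells outside the cords.

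Each value below is a read count divided by the library's size factor, here called a normalized count. A pair of values joined by "to" gives the means at E16.5 and P0, each ± SD over 3 libraries. Changes are log2 fold changes of P0 over E16.5 on log2(normalized count + 1), tested with limma, and negative values are lower at P0. A gene is said to have risen or fallen where its Benjamini-Hochberg adjusted p was under 0.05 in the same direction under 4 ways of scaling the libraries: the factors of the deposited table, median-of-ratios, TMM and equal totals. On the table's scaling 14562 of 21376 genes (68.1%) passed, 6930 higher at P0 (32.4%) and 7632 lower (35.7%). All 6930 of the former passed under the other 3 scalings as well, but only 3457 of the latter did (16.2%), which gave 10387 genes (48.6%) with a direction that did not depend on these scalings. For 15255 genes (71.4%) the 3 libraries of one stage did not overlap those of the other.

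The reads were spread over more genes at P0. Assigned reads numbered 40946616 to 45641999 per library at E16.5 and 43592337 to 47744848 at P0. At least 1 read was found for 29291 to 30776 genes at E16.5 and 34207 to 34857 at P0, and the 100 genes with most reads held 17.1% to 17.9% of reads at E16.5 against 12.6% to 12.9% at P0. The table's factors were 1.72 times larger at P0 than at E16.5, against 1.68 times for median-of-ratios, 1.59 times for TMM and 1.09 times for equal totals. The share of passing genes that were higher at P0 was accordingly 47.6%, 49.4%, 53.01% and 78.0%, and over all genes the median log2 fold change was -0.02, 0.02, 0.09 and 0.63. The decreases lost were those that did not pass as decreases with equal totals. Among them, 817 genes passed with equal totals in the opposite direction, as higher at P0. A named gene that was lower on the table's scaling but did not pass with equal totals is marked as such below. Direction also followed level: the median was 0.64 for genes with a mean under 30 and -0.74 for genes with a mean of 3000 or more. Medians of lists are therefore set beside that of all genes at the same level and beside their own value with equal totals.

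**Figure D1:**
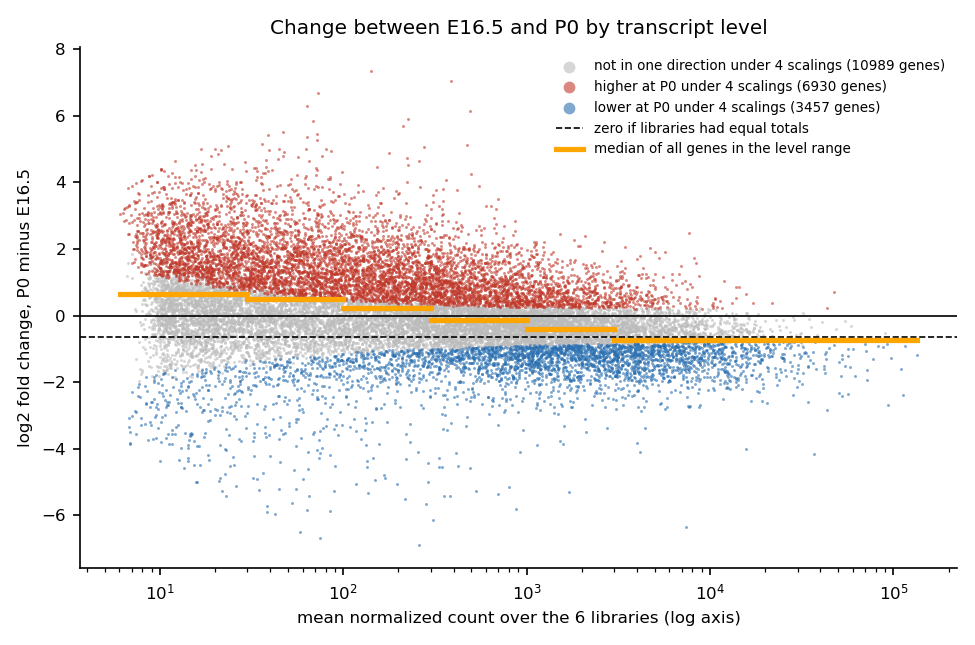
Log2 fold change of P0 over E16.5 against the mean normalized count over the 6 libraries (log axis) for 21376 genes, with the 6930 genes that rose and the 3457 that fell under 4 scalings in colour. Orange bars are medians of all genes in each range of level, falling from 0.64 to -0.74, and the dashed line is where zero would lie with equal library totals.

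Morc1 (chr16:48431237-48630900), the germline ATPase of transposon silencing after which the series is named, was at 32917, 32890.2 and 28328 at E16.5 and 7708, 7501 and 7279.9 at P0. It was 4.19-fold lower at P0 (log2 fold change -2.06, SE 0.09, adjusted p 7.51e-12), and the stages did not overlap. Its values were not near 0 in the libraries labelled Morc1 (-/-), and the labels do not say which part of the gene that allele lacks. Of its relatives, Morc4 rose from 74 ± 6.51 to 403 ± 46.5 and Morc3 from 3545 ± 331 to 4549 ± 326. Morc2a, which acts with the HUSH silencing complex, was lower on the table's scaling (-0.85) but did not pass with equal totals (-0.19).

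The RNA carried the germ cell programme at both stages. The 12 germ cell markers summed to 384854 to 432085 normalized counts per library at E16.5 and 228613 to 241997 at P0. These sums are on the table's scaling, on which all genes together also summed to less at P0. Those totals were 3.61e+07 to 3.91e+07 per library at E16.5 and 2.30e+07 to 2.49e+07 at P0. The Mvh gene Ddx4 itself, an RNA helicase of the germ line, was at 49432, 54570.2 and 44916 at E16.5 and 24320.1, 23070.2 and 22150.5 at P0. It fell (log2 fold change -1.10, SE 0.09, adjusted p 1.42e-08), and the stages did not overlap. Dazl, an RNA-binding protein that licenses germ cell development, went the other way, at 33424, 39372 and 35063 at E16.5 and 58205, 62301 and 57195 at P0, and rose (log2 fold change 0.72, SE 0.09, adjusted p 1.74e-06). In all, 1 of 12 germ cell markers rose (8.33%) and 8 fell (66.7%), against 8.64% and 43.4% of all genes with a mean of 3000 or more. The median log2 fold change of the list was -1.04, against -0.74 at that level (-0.37 with equal totals). The size of the drop depended on the scaling. Less RNA per germ cell and a smaller share of germ cells cannot be told apart in bulk RNA.

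Markers of other cells are set apart here because several of them moved with stage. The Sertoli cell list summed to 13836, 15593 and 21583 in E16.5 libraries 1, 3 and 4 and 47714, 41718 and 24104 in P0 libraries 1, 3 and 4. All 11 tested Sertoli markers rose, against 31.4% of all genes with a mean of 300 to 1000. Without E16.5 library 1 or 3 or P0 library 1 or 3, 10 of these markers rose. Their median log2 fold change was 1.16, against -0.13 at that level. They included Sox9, the testis-determining factor of Sertoli cells (804 ± 224 to 1751 ± 409.6 normalized counts), the hormone gene Amh (120.2 ± 48.9 to 374 ± 136) and the receptor gene Fshr (70.7 ± 38.1 to 276 ± 137). P0 library 4 stood apart with the lowest sum at P0, still above all E16.5 libraries. It lay below E16.5 library 4 for Ptgds, Gata4, Clu and Dhh. For 8 of the 12 listed markers every P0 library lay above every E16.5 library. Peritubular and stromal markers summed to 2982 to 3874 at E16.5 and 7579 to 8157 at P0. Of 12 tested, 9 rose (75%), against 31.4% of all genes with a mean of 300 to 1000. Those that rose included smooth muscle actin Acta2 (218 ± 108 to 1138 ± 19.1) and the stromal factor Nr2f2 (17.5 ± 5.98 to 211 ± 11.8).

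Leydig cell markers varied as widely within a stage as between stages, with sums of 623, 1236 and 7763 in E16.5 libraries 1, 3 and 4 and 6201, 3169 and 1133 in P0 libraries 1, 3 and 4. Cyp17a1, an enzyme of androgen synthesis, was at 131, 339 and 2944 at E16.5 and 1255, 339 and 78.2 at P0, so that the stages overlapped. Erythroid markers, haemoglobin genes among them, summed to 1791 to 2528 at E16.5 and 1601 to 2563 at P0. Most of each sum was the haem synthesis gene Alas2, at 1373 to 1549 at E16.5 and 1248 to 1397 at P0. The haemoglobin genes varied more within a stage. Hbb-bs was at 108, 268 and 424 at E16.5 and 563, 258 and 189 at P0, and Hba-a1 at 78.2, 207 and 400 and at 402, 161 and 82.5.

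Markers of blood-derived cells did not move as a block. Of 10 mast cell markers, 8 of 9 tested rose (88.9%) and 1 fell (11.1%), against 43.3% and 10.1% of all genes with a mean of 100 to 300. The marker that fell was the receptor kinase gene Kit, which germ cells also express and which went from 2804 ± 133 to 1281 ± 106. The mast cell proteases are among the largest increases described below. The high-affinity receptor gene Fcer1a, a defining mast cell marker, reached at most 5.73 normalized counts in any library and was not tested. Of neutrophil markers 5 of 6 rose (3 without P0 library 1), or 83.3% against 45.5% of all genes with a mean of 30 to 100. The myeloperoxidase gene Mpo rose from 54.6 ± 13.4 to 177 ± 22.2, and the list summed to 115 to 168 at E16.5 and 311 to 367 at P0. Of the macrophage list 4 of 9 rose and 1 fell. The lysosomal protein gene Cd68 fell from 938 ± 97.9 to 38.8 ± 9.21, while Lyz2, the lysozyme gene, rose from 5.59 ± 8.88 to 75.7 ± 44.4. The defining receptor gene Csf1r was at 63.9, 55.8 and 52.2 at E16.5 and 62.1, 43.5 and 12.5 at P0 and did not pass, although without P0 library 1 it did, with a log2 fold change of -1.24. Of lymphocyte markers 2 of 7 rose and 4 fell. The B cell gene Cd79b (92.8 ± 12.1 to 8.84 ± 3.48), the T cell gene Cd3d (137 ± 18.1 to 22 ± 7.70) and the cytotoxic cell gene Nkg7 (105 ± 30.1 to 14.1 ± 2.52) fell, while another T cell gene, Cd3e, rose from 52 ± 11.1 to 156 ± 17.5 and Ptprc, the pan-leukocyte gene, from 7.40 ± 8.46 to 54.1 ± 9.67. Endothelial markers split too: 4 of 8 rose (50%) and 1 fell (12.5%), near the 43.3% and 10.1% of all genes with a mean of 100 to 300. The receptor gene Tie1 rose (215 ± 28.6 to 692 ± 62), and Plvap fell (1302 ± 59.8 to 374 ± 51.2). The part of signal from other cells in the changes below was not tested.

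**Figure D2:**
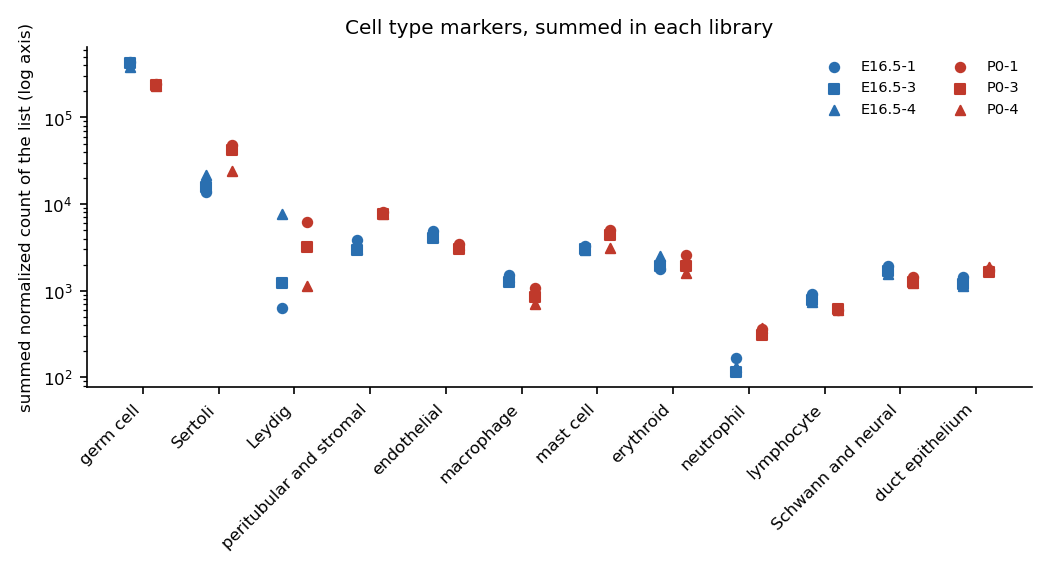
Summed normalized counts (log axis, the table's scaling) of 12 lists of cell type markers in each of the 6 libraries, blue for E16.5 and red for P0, with the shape giving the library number. Germ cell sums are lower and Sertoli and peritubular sums higher in all 3 P0 libraries, whereas Leydig sums range from 623 to 7763 within E16.5.

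The largest decreases included genes of the primordial germ cell and of the male fetal programme. Where the higher stage had a mean of 100 or more, the 12 lowest log2 fold changes were in Gtsf1l, Dppa3, Ifitm1, Nanos2, Slc36a1os, Serpina3c, Tmc2, Nanos3, Khdc1a, Lrrc18, Arl13a and Gzma, from -6.88 to -5.06. Dppa3 (also called Stella, chr6:122626410-122630272), which shields maternal methylation in the zygote and marks primordial germ cells, was at 14062, 14501 and 15467 at E16.5 and 151, 195 and 199.8 at P0. This was an 80.8-fold drop (log2 fold change -6.34, SE 0.11, adjusted p 3.44e-16). Gtsf1l, a relative of the piRNA factor Gtsf1, was at 473, 511 and 555 at E16.5 and 0.522, 7.61 and 5.31 at P0.

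Nanos2 (chr7:18987400-18988962), an RNA-binding protein that holds male germ cells out of meiosis, was at 428, 596 and 630.0 at E16.5 and 6.79, 10.3 and 13.51 at P0 and fell (log2 fold change -5.65, SE 0.26, adjusted p 1.30e-11). Exons of another annotated gene cover 49% of its exon bases, and the strand setting of the count is not given, so part of its reads could belong there. Its relative Nanos3, needed for survival of primordial germ cells, was at 1388, 1252 and 1463 at E16.5 and 38.1, 20.1 and 43.9 at P0 and fell (log2 fold change -5.36, SE 0.22, adjusted p 5.40e-12). Dnd1, the partner of NANOS proteins in binding germline mRNA, was at 74414, 70585 and 63749 at E16.5 and 4313, 3545 and 3819 at P0 and fell (log2 fold change -4.16, SE 0.10, adjusted p 9.31e-15). For all 3 genes every P0 library lay far below every E16.5 library. Lrrc18 and Arl13a, of less settled roles in germ cells, went from 175 ± 5.90 to 3.89 ± 1.97 and from 228 ± 27.7 to 6.73 ± 3.996.

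Genes with other known roles stood beside them. The serine protease gene Gzma fell from 383 ± 15.4 to 10.6 ± 1.64, the protease inhibitor gene Serpina3c from 690.0 ± 149 to 19.2 ± 12.9 and the channel-like gene Tmc2 from 747 ± 71.7 to 18.4 ± 10.4. Slc36a1os, an antisense transcript, went from 127 ± 17.6 to 2.62 ± 2.77. Exons of other annotated genes cover 0% of its exon bases, and 7% of its 50-base words are shared with other genes. Without a strand setting, reads from introns of a gene on the other strand could still not be told apart. Khdc1a, with 43.3% of its 50-base words shared with transcripts of other genes, went from 267 ± 37.7 to 5.68 ± 1.004. Where the higher stage had a mean of 2000 or more, the lowest log2 fold changes after Dppa3 and Dnd1 were in Ighm (-4.10), Rrad (-4.003), Nfkbid (-3.89), Ifitm2 (-3.85), Fancd2 (-3.81) and Acad12 (-3.76). Rrad, a GTPase that restrains calcium channels, was at 32025, 29606 and 27299 at E16.5 and 2115, 1630.2 and 1821 at P0. The immunoglobulin heavy chain gene Ighm was at 8063, 8308 and 7274 at E16.5 and 465, 489 and 427 at P0, and Nfkbid, a nuclear regulator of NF-kappaB, went from 2138 ± 237 to 143 ± 23.3. Acad12, of the acyl-CoA dehydrogenase family, went from 2815 ± 69.2 to 208 ± 20.05.

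The largest increases were led by mast cell proteases. The 12 highest log2 fold changes, under the same limit on level, were in Mcpt2, Amy1, Tpsab1, Lipo1, Tpsb2, Cma1, Sptssb, Cpa3, Glra2, Mcpt4, Olfr629 and Cplx3, from 7.36 to 5.13. The 6 mast cell genes among them, the chymases Mcpt2, Cma1 and Mcpt4, the tryptases Tpsab1 and Tpsb2 and the carboxypeptidase Cpa3, were each higher in P0 library 1 than in P0 library 4. Cpa3 was at 4.77, 5.58 and 8.71 at E16.5 and 627, 439 and 188 at P0. Mcpt2 (chr14:56042041-56044642) had at most 3 reads in any E16.5 library and was at 352, 269.5 and 228 at P0, at least 98.9-fold above the value of 3 reads in the shallowest E16.5 library. Tpsab1 was at the same floor and at 158, 180.4 and 98.9 at P0, at least 50.9-fold higher.

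The 3 genes given next were instead even across the P0 libraries. The amylase gene Amy1 was at 2.86, 4.65 and 7.91 at E16.5 and 745, 761 and 790.1 at P0. Cplx3, a complexin of synaptic vesicle release, was at 39.1, 22.3 and 18.2 at E16.5 and 856, 934 and 956 at P0. Glra2, a glycine receptor subunit, was at 1.91, 1.86 and 3.17 at E16.5 and 137, 146 and 142 at P0. For Amy1 20.2% and for the lipase gene Lipo1 44.1% of 50-base words are shared with other genes, so their counts are uncertain. Other genes also overlap 32.7% of Amy1 exon bases. Sptssb, a small subunit of the enzyme that starts sphingolipid synthesis, went from 2.16 ± 2.97 to 135.2 ± 33.7 and the odorant receptor gene Olfr629 from 2.84 ± 1.65 to 141 ± 15.3.

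Where the higher stage had a mean of 2000 or more, the highest log2 fold changes were in Inha (2.49), Arhgap36 (2.46), Perp (2.38), Mest (2.26), Grik5 (2.21), Rftn1 (2.20), Nr1d1 (2.10) and Lmna (2.09). Inha (chr1:75507077-75510366), the inhibin subunit made by Sertoli cells, was at 1637, 1880.1 and 3604 at E16.5 and 15802, 15122 and 8256 at P0, with P0 library 4 lowest as in the Sertoli sum. Mest, an imprinted gene, was at 603, 601 and 669.6 at E16.5 and 2864, 3055 and 3057 at P0, and other genes overlap 23.1% of its exon bases. Lmna, which encodes the nuclear lamins A and C, was at 888, 611 and 691 at E16.5 and 3268, 2801 and 3194 at P0. Arhgap36, a regulator of Hedgehog signalling, was at 577, 417 and 419 at E16.5 and 2675, 2439.9 and 2560.5 at P0. Their 3 P0 libraries lay close together. Perp, a desmosomal protein induced by p53, went from 676 ± 161 to 3474 ± 159.9 and Rftn1, a lipid raft protein, from 949 ± 160.2 to 4341 ± 112.

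**Figure D3:**
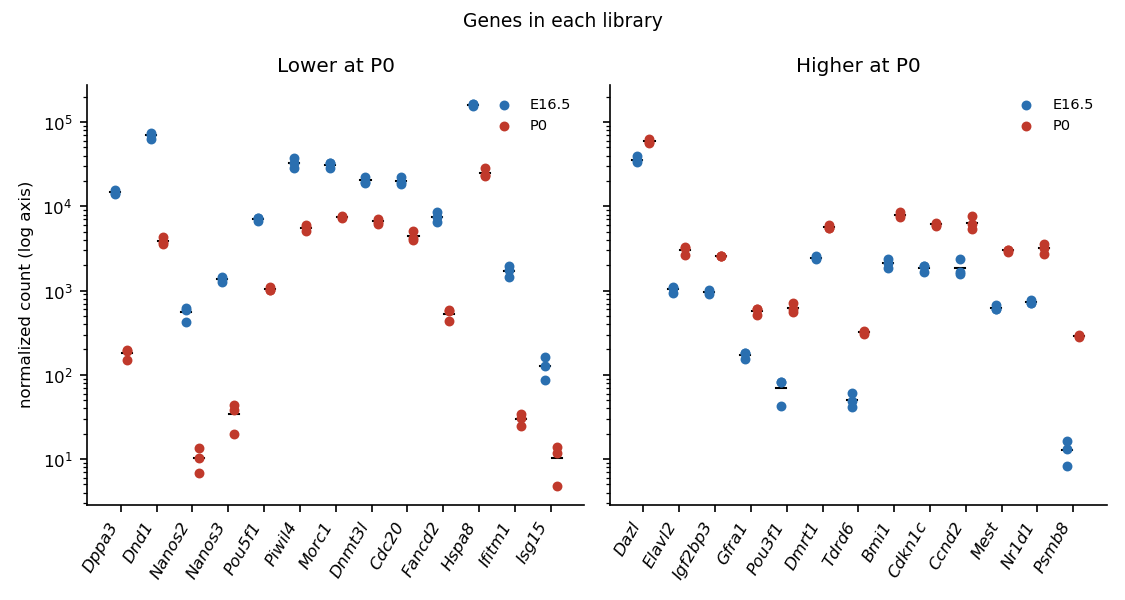
Normalized counts (log axis) in each library for 13 genes that fell and 13 that rose, blue points for E16.5, red points for P0 and black bars for means of 3 libraries. No gene shown has overlapping stages, and Dppa3 drops from 14676 to 182.

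Several pluripotency genes fell, Pou5f1 and Nanog among them. Of the pluripotency and primordial germ cell list, 9 of 20 tested members fell and 3 rose, with a median log2 fold change of -0.82 against -0.13 for all genes at that level (-0.15 with equal totals). These shares were 45% and 15%, against 15.8% and 31.4% at that level. Pou5f1 (chr17:35506018-35510772), which encodes the core factor OCT4, was at 6790.4, 7197 and 7254 at E16.5 and 1105, 1026 and 1027 at P0 and fell (log2 fold change -2.75, SE 0.09, adjusted p 5.31e-13). The embryonic stem cell genes Dppa4 and Utf1 fell from 58982 ± 1405 to 9852 ± 766 and from 20106 ± 1111 to 3574 ± 110.3 (for Dppa4 33.1% of 50-base words are shared with other genes), and the RNA-binding gene Lin28a from 1038 ± 93.6 to 192 ± 29.5. Nanog, whose product works with OCT4, was already low and fell from 238 ± 55.3 to 62.9 ± 1.80. Sall4, a zinc finger factor kept in undifferentiated spermatogonia, fell from 8835 ± 995 to 4554 ± 75.8, a log2 fold change of -0.95. Sox2 was lower on the table's scaling (-0.72) but did not pass with equal totals (-0.06). The members that rose were Tbx3 (41 ± 8.35 to 296 ± 29.2), L1td1 (23 ± 12 to 88.1 ± 16.2) and Klf4 (414 ± 21.7 to 569 ± 33.5).

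RNA-binding proteins of the germ line moved in both directions. On that list 7 of 20 tested members rose (35%) and 5 fell (25%). Of all genes with a mean of 1000 to 3000, 18.4% rose and 25.6% fell. Nanos2, Nanos3, Dnd1, Lin28a and Rbm44 fell, the last from 1847 ± 194 to 895 ± 42.6. Dazl, Elavl2, Igf2bp3, Igf2bp1, Nanos1, Msi2 and Rbm46 rose. Elavl2, a neuronal and germline mRNA stabiliser, was at 942, 1069 and 1094 at E16.5 and 3309, 2621 and 3162 at P0. Igf2bp3, a fetal mRNA-binding protein, was at 922, 962 and 1021 at E16.5 and 2560.0, 2578 and 2548 at P0. Nanos1, the third NANOS gene, was at 142, 141 and 148 at E16.5 and 330.0, 339 and 367 at P0, in the direction opposite to Nanos2 and Nanos3.

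Genes of the future spermatogonium were mixed. Of this list 8 of 23 rose (34.8%) and 5 fell (21.7%), against 31.4% and 15.8% of all genes with a mean of 300 to 1000. Pou3f1, a POU factor of spermatogonial stem cells, was at 82.1, 42.8 and 82.3 at E16.5 and 553, 606 and 712 at P0, and had the greatest increase of the list (log2 fold change 3.21, SE 0.22, adjusted p 1.16e-09). Gfra1 and Ret, which form the receptor for the niche factor GDNF, both rose. Gfra1 was at 180.4, 183 and 154 at E16.5 and 598, 611 and 516 at P0. Ret was at 582, 704 and 534 at E16.5 and 1070.4, 1113 and 1114 at P0. Id4, an inhibitor of helix-loop-helix factors that marks stem cells, was at 339, 419 and 351 at E16.5 and 756, 719 and 645 at P0. Sohlh2 and Dmrt1, transcription factors of spermatogonial differentiation, rose from 730.2 ± 34.5 to 2190.2 ± 116 and from 2464 ± 128 to 5698 ± 308, and Zbtb16 (PLZF) from 91.4 ± 2.07 to 178 ± 40.7. Sertoli cells also express Dmrt1. The members that fell were the retinoic acid receptor gene Rarg (200.4 ± 49.8 to 56.1 ± 8.90), the homeobox gene Rhox10 (3159 ± 429.6 to 916 ± 71), the GDNF-induced genes Bcl6b (981 ± 148 to 348 ± 27.6) and Egr4 (7228 ± 202 to 3223 ± 154), and Kit. Foxo1 and Etv5, factors of stem cell upkeep, did not pass on the table's scaling (0.07 and 0.29) but were higher with TMM and equal totals (0.73 and 0.96 with the latter), and Etv5 also without E16.5 library 3 (0.42). For Etv5 26.3% of 50-base words are shared with other genes. Stra8, the retinoic acid target that gates meiosis, was lower on the table's scaling (-0.59) and at 0.07 with equal totals.

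Genes of meiotic prophase showed no common direction: 8 of 28 tested members rose (28.6%) and 1 fell (3.57%), and the median was -0.16 (0.50 with equal totals). Of all genes with a mean of 300 to 1000, 31.4% rose and 15.8% fell, with a median of -0.13. Syce3 and Meiob, of the synaptonemal complex and of recombination, rose from 48.2 ± 9.49 to 153 ± 13.4 and 78.5 ± 7.501 to 276 ± 15.2. Tex11, an X-linked gene of meiotic recombination, fell from 4872 ± 469 to 1730.2 ± 128.

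**Figure D4:**
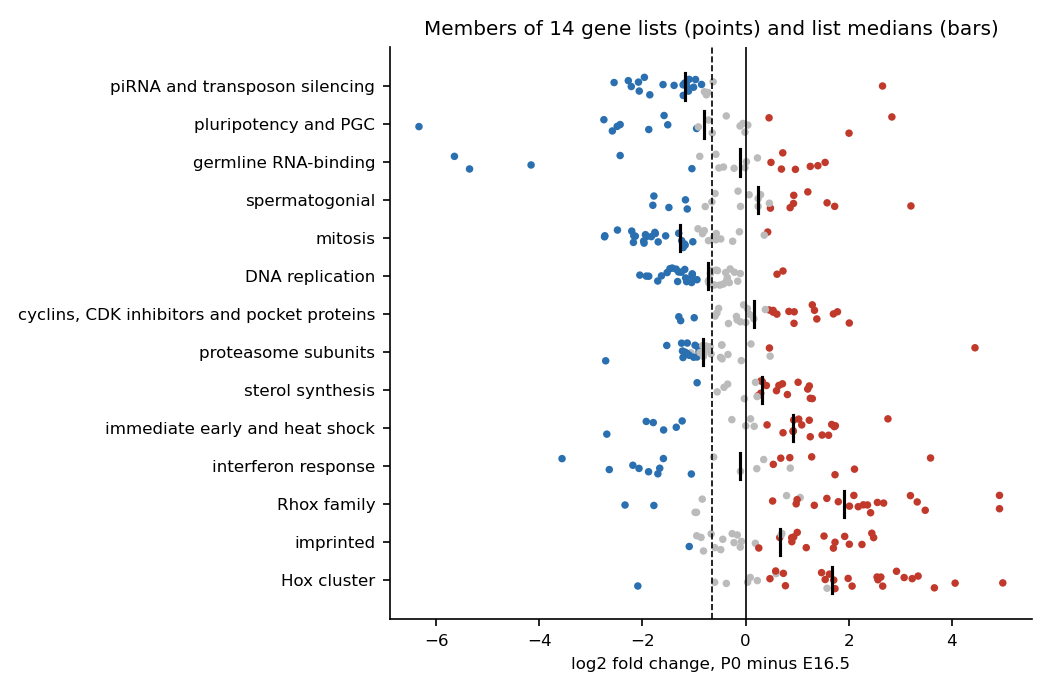
Log2 fold changes, on the table's scaling, of every tested member of 14 gene lists, in red and blue where called higher or lower under 4 scalings and grey otherwise; black bars are list medians, the solid line is zero and the dashed line is zero with equal library totals. All piRNA pathway members but Tdrd6 lie to the left of zero, and in the list that holds both, most immediate early genes lie to the right and most heat shock genes to the left, Jund and Hspb1 being exceptions.

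Most piRNA pathway genes fell. Of 24 tested members, 23 were lower on the table's scaling, 19 fell under all 4 scalings and 1 rose. The median log2 fold change was -1.17, against -0.74 for all genes with a mean of 3000 or more (-0.50 with equal totals). At that level 43.4% of all genes fell, against 79.2% of this list. Piwil4 (MIWI2, chr9:14696230-14740733), the nuclear PIWI protein that guides DNA methylation of transposons in the fetal testis, was at 32797, 37199.9 and 28776 at E16.5 and 6055, 5623 and 5126 at P0 and fell (log2 fold change -2.55, SE 0.10, adjusted p 3.59e-12). Mov10l1, the helicase that starts piRNA processing, was at 29927, 33323 and 26942 at E16.5 and 6131, 6213 and 6220.0 at P0. Pnldc1, which trims piRNAs, fell from 6197 ± 652 to 1471 ± 207. Asz1 and Tdrkh, which act on the mitochondrial surface, fell from 16625 ± 799 to 4263 ± 129 and from 9969.9 ± 485 to 2752 ± 169.8. Other genes overlap 36.7% of Tdrkh exon bases. Tdrd1 and Tdrd5, Tudor proteins of the germ granules, fell from 17676 ± 1649.8 to 7634 ± 441 and from 21059 ± 2479 to 4514 ± 314.

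Some members were lower on the table's, median-of-ratios and TMM scalings but did not pass with equal totals. Piwil2 (MILI), the cytoplasmic PIWI protein, was at 34744, 38108 and 31938 at E16.5 and 19944, 21542 and 18734 at P0, with log2 fold changes of -0.80 on the table's scaling and -0.13 with equal totals. Spocd1, which links piRNAs to DNA methylation, stood at -0.73 and -0.07, and Mael at -0.76 and -0.10. Gtsf1, a cofactor of PIWI proteins, stood at -0.63 and 0.03. Tdrd6, a Tudor protein of later spermatogenic granules, was the exception, at 61.1, 49.3 and 41.2 at E16.5 and 330.0, 308 and 323 at P0, and rose (log2 fold change 2.66, SE 0.19, adjusted p 2.29e-09).

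The promoters of Ddx4 and Tdrd1 are shown for a motif that the pathway's promoters held often, the E-box CACGTG (a palindrome, the same on both strands), which basic helix-loop-helix factors bind. In the 250 bases before the RefSeq start it was found in 7 of 17 piRNA pathway genes with a RefSeq promoter and in 6.05% of 27025 promoters. Capitals mark it in Ddx4 (chr13:112652311-112652560, minus strand) and Tdrd1 (chr19:56825959-56826208, plus strand), both on GRCm38.p6 and printed 5′ to 3′.
Ddx4: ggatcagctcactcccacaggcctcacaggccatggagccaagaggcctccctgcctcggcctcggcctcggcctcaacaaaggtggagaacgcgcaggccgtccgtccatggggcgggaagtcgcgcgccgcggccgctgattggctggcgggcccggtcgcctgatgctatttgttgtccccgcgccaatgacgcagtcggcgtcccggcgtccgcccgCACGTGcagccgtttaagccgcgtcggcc
Tdrd1: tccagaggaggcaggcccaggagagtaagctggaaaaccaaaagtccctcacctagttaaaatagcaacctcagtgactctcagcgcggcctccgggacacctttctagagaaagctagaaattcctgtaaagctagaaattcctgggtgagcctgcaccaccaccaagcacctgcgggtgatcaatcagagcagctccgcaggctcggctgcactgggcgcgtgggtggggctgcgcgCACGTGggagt
The match is a description of the letters and says nothing of which factor binds there.

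Of the DNA methylation list, only Dnmt3l, Dnmt3a and Dnmt3c fell, all of them genes of new methylation. Dnmt3l, the cofactor that drives methylation in the male germ line, was at 22397, 19541 and 19086 at E16.5 and 7139, 6195 and 6521 at P0. Dnmt3a, the main enzyme, was at 57584, 52667 and 48163 at E16.5 and 20179, 19491 and 19709 at P0. Dnmt3c, the rodent enzyme for young transposons, was at 2341, 2303 and 2049 at E16.5 and 613, 550.5 and 556 at P0. Their log2 fold changes were -1.62, -1.41 and -1.96, and in each the stages did not overlap. Of Dnmt3c 50-base words, 23.9% are shared with other genes. These were the 3 of 11 tested members that fell, and on the table's scaling 7 were lower. The 27.3% that fell compare with 15.8% of all genes with a mean of 300 to 1000. The maintenance genes Dnmt1 and Uhrf1 were lower on that scaling (-0.58 and -0.52) but not with equal totals (0.09 and 0.14).

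Of H3K9 methylation genes 3 of 20 tested members rose (15%) and 6 fell (30%). These shares are near those of all genes with a mean of 1000 to 3000, 18.4% and 25.6%. Without E16.5 library 1 or 4 or P0 library 1 or 3 only 1 rose. The methyltransferase gene Suv39h1 fell from 1955 ± 157 to 727 ± 67.9, and the HUSH gene Mphosph8 from 8923 ± 514 to 4253 ± 218. The corepressor gene Trim28 fell from 12307 ± 1030.5 to 6658 ± 231, Cbx5 (HP1 alpha) from 2334 ± 254 to 1166 ± 102 and the SETDB1 partner Atf7ip from 4868 ± 401 to 2402 ± 94. Setdb1 itself stood at -0.84 on the table's scaling and -0.17 with equal totals. Polycomb genes, which maintain H3K27 methylation and H2A ubiquitylation, moved in both directions: 8 of 28 tested members rose (28.6%) and 5 fell (17.9%). At their level, a mean of 1000 to 3000 as well, the shares of all genes were 18.4% and 25.6%. Bmi1, of the ubiquitylating complex, was at 2129, 2351 and 1856 at E16.5 and 7816, 8576 and 7406 at P0 (20.7% of 50-base words shared). Rnf2, its catalytic partner, rose from 2862 ± 257 to 6349 ± 701. Ezh1, an H3K27 methyltransferase, was at 13039, 13589.5 and 11145 at E16.5 and 5562, 4875 and 4823 at P0. Its relative Ezh2 did not pass on the table's scaling (0.11) and was higher with equal totals (0.78). Eed, shared by both enzymes, fell from 17451 ± 1249 to 8826 ± 674 and Suz12 rose from 766 ± 87.7 to 1079 ± 115.

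Most transcripts of the division machinery fell. Of the mitosis list, 22 of 34 tested members fell and 1 rose (Nusap1; 2 without E16.5 library 3), with a median of -1.27 against -0.42 for all genes at that level (-0.60 with equal totals). The share that fell was 64.7%, against 25.6% at that level. Cdc20 (chr4:118432901-118437352), the activator of the anaphase-promoting complex, was at 22336, 19222 and 18376 at E16.5 and 5044, 4204 and 4031 at P0 and fell (log2 fold change -2.18, SE 0.10, adjusted p 1.84e-11). Mad2l1 and Bub1 of the spindle checkpoint fell from 10154 ± 585 to 1537 ± 281 and 12179 ± 1473 to 2773 ± 414, and the kinetochore gene Cenpf from 13424 ± 394 to 2026 ± 157. Top2a, the topoisomerase that untangles sister chromatids, was at 6267, 6872 and 6376 at E16.5 and 2058, 1677 and 1324 at P0. Mki67, the gene of the proliferation marker Ki-67, was an exception, at 128, 219 and 139 at E16.5 and 228, 192 and 190.2 at P0 with overlapping stages. Its log2 fold change was 0.36 and did not pass on the table's scaling, but it passed with equal totals (1.02) and without E16.5 library 3 (0.60). Ccnb1 fell from 14385 ± 1023 to 3129 ± 455, but 39.9% of its 50-base words are shared with other genes.

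Promoters of 2 of these genes are shown because mitotic genes are known to share CCAAT boxes (CCAAT, bound by NF-Y) and the CHR element (TTTGAA, bound by DREAM and MuvB complexes). Both motifs were searched on both strands in the 250 bases before the RefSeq start. CCAAT was found in 20 of 27 promoters of the mitosis list (74.1%) and in 34.5% of 27025 promoters, and TTTGAA in 8 (29.6%) and 16.3%. Capitals mark both motifs, and a motif on the opposite strand reads ATTGG or TTCAAA. The Cdc20 window is chr4:118437344-118437593 and the Top2a window chr11:99024190-99024439, both on GRCm38.p6, minus strand, printed 5′ to 3′.
Cdc20: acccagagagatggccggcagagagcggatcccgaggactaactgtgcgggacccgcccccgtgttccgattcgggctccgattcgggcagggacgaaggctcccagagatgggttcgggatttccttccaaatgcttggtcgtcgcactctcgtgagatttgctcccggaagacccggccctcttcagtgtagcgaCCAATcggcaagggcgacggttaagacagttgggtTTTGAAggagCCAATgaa
Top2a: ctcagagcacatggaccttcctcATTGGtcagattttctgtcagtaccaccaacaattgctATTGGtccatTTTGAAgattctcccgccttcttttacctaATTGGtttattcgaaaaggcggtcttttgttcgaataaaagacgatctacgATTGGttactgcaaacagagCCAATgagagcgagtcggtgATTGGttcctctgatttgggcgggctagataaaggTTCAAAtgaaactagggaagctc
A match is a description of these letters and not of binding.

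Of 41 replication genes tested, 20 fell and 2 rose, with a median of -0.72 against -0.42 at that level (-0.06 with equal totals). The share that fell was 48.8%, against 25.6% at that level. The MCM helicase gene Mcm5 fell from 12539 ± 430.3 to 3436 ± 538 and the ligase gene Lig1 from 13350.1 ± 867 to 3519.6 ± 339. Mcm10 and the ribonucleotide reductase gene Rrm1 fell from 1923 ± 261 to 462 ± 41.3 and 10998 ± 889 to 3562 ± 465. Tk1 and Chaf1b rose from 282 ± 19.1 to 433 ± 53.4 and 477 ± 84.3 to 782 ± 23.5. Fancd2, the central protein of Fanconi crosslink repair, was at 7469, 8459 and 6459 at E16.5 and 569, 586 and 437 at P0. A list of 16 Fanconi and crosslink repair genes, drawn up after that value was seen, had 8 members that fell, and 14 were lower on the table's scaling. The 50% that fell compare with 25.6% of all genes with a mean of 1000 to 3000. Fanci, the partner of Fancd2, fell from 892 ± 71.1 to 240.5 ± 33.8 and Slx4 from 1129.6 ± 161 to 289 ± 21.2.

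Regulators of the cycle moved in both directions. Of cyclins, inhibitors and pocket proteins, 13 of 29 rose (44.8%) and 3 fell (10.3%), against 31.4% and 15.8% of all genes with a mean of 300 to 1000. The D-type cyclin genes Ccnd1 and Ccnd2, which carry cells into S phase, both rose. Ccnd1 was at 69.7, 78.1 and 82.3 at E16.5 and 344, 283 and 312 at P0, and other genes overlap 23.4% of its exon bases. Ccnd2 was at 1662, 1567 and 2388 at E16.5 and 7604, 6202 and 5396 at P0. Inhibitors that hold cells in arrest were also among those that rose. Cdkn1c (p57) was at 1968, 1674 and 1977 at E16.5 and 5790.5, 6074 and 6429 at P0, and other genes overlap 30.6% of its exon bases. Cdkn1b (p27) rose from 81 ± 8.46 to 158 ± 34 and Cdkn2c from 189.5 ± 22 to 364 ± 35.6. The retinoblastoma gene Rb1 rose from 671 ± 105 to 1689 ± 164. E2f6, a repressor of germline genes in other cells, and Ccng2 fell from 11513 ± 983 to 4816 ± 481 and 3766 ± 493 to 1537 ± 224. Among apoptosis and p53 genes, 6 of 25 rose, such as Bcl2 (35.9 ± 8.96 to 99.9 ± 8.91), and 4 fell, such as the caspase gene Casp9 (7692 ± 583 to 1285 ± 65.1) and Bmf (229 ± 56.6 to 76.2 ± 13.6). These shares were 24% and 16%, against 31.4% and 15.8% at the same level.

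Genes of protein synthesis, protein breakdown and respiration were mostly lower on the table's scaling, as were abundant genes in general. Of cytosolic ribosomal protein genes 75 of 83 were lower on the table's scaling, but 25 fell under all 4, and their median of -0.74 equalled that of all genes with a mean of 3000 or more (-0.74), and was -0.07 with equal totals. The share that fell under all 4 was 30.1%, below the 43.4% of all genes at that level. Of mitochondrial ribosomal proteins 28 of 76 fell (36.8%, against 25.6% of all genes with a mean of 1000 to 3000). On the table's scaling 60 were lower, with a median of -0.73 against -0.42 at their level (-0.06 with equal totals). Nuclear-encoded respiratory chain subunits had 23 of 81 that fell (15 without P0 library 3) and 9 that rose. These shares, 28.4% and 11.1%, compare with 25.6% and 18.4% of all genes at the same level. The complex III core gene Uqcrc1 fell from 80748 ± 13382 to 28169 ± 2045, and Cox4i2, the isoform used under low oxygen, rose from 23.3 ± 10.8 to 102 ± 14.1. Cox6b2, a testis isoform, fell from 158 ± 18.2 to 51.4 ± 8.88.

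Proteasome subunits fell in 16 of 37 cases (43.2%), the same as the 43.4% of all genes at their level to within 1%. Their median was -0.83 against -0.74 at that level (-0.17 with equal totals). Catalytic subunits moved in opposite directions. Psmb5, of the standard proteasome, was at 14349, 11829 and 13529 at E16.5 and 2025, 1917 and 2092 at P0, though 58% of its 50-base words are shared with other genes. Psmb8, its replacement in the immunoproteasome, was at 13.4, 8.37 and 16.6 at E16.5 and 291, 284 and 298 at P0 and rose (log2 fold change 4.45, SE 0.26, adjusted p 1.94e-10). The chaperone of protein folding Hspa8 was at 165731, 163498 and 154233 at E16.5 and 28668, 23056 and 23420.4 at P0, with 62.9% of words shared, and its cofactor Stip1 fell from 76429.9 ± 5519 to 10738 ± 808.

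Metabolic lists were mixed. In glycolysis 7 of 19 tested members rose (36.8%) and 5 fell (26.3%), against 18.4% and 25.6% of all genes with a mean of 1000 to 3000. Pfkp, the platelet-type phosphofructokinase, rose from 1050.4 ± 40.2 to 4075 ± 183 and Ldha, the lactate dehydrogenase, from 9789.7 ± 796 to 17895 ± 1753. The pyruvate kinase gene Pkm fell from 107447 ± 6128 to 56558 ± 1476 (32.4% of 50-base words shared) and the glucose transporter gene Slc2a1 from 3393 ± 217 to 1625 ± 235. Sterol synthesis leaned upwards, with 14 of 21 that rose (66.7%) and 1 that fell (4.76%), against 18.4% and 25.6% at that level. The median of the list was 0.32 against -0.42 for all genes at its level (0.99 with equal totals). Cyp51, a demethylase of sterol synthesis, was at 734, 915 and 957 at E16.5 and 2145, 2177 and 2042 at P0. Hmgcs1, which makes the precursor of mevalonate, rose from 4033 ± 239 to 9517 ± 622. The cyclase gene Lss rose from 509 ± 19.4 to 1218 ± 26.1 and the controlling factor Srebf2 from 3669 ± 507 to 6412 ± 425.

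Antioxidant genes split, with 9 of 22 that rose (40.9%) and 4 that fell (18.2%). Of all genes with a mean of 1000 to 3000, 18.4% rose and 25.6% fell. The haem oxygenase gene Hmox1 fell from 8579.8 ± 648 to 3128 ± 110.4, the peroxiredoxin gene Prdx1 from 60964 ± 3949.6 to 24438 ± 580.5 and the glutathione reductase gene Gsr from 34052 ± 4093 to 14434 ± 894. Gclc, which limits glutathione synthesis, rose from 3983 ± 444 to 8377 ± 102. In autophagy and lysosome genes 5 of 26 tested members rose (19.2%) and 6 fell (23.1%). Of all genes with a mean of 3000 or more, 8.64% rose and 43.4% fell, so decreases were less frequent in this list. Among them, the conjugation genes Atg7 and Atg16l1 fell from 1765 ± 156 to 542 ± 63.4 and from 2972 ± 339 to 988 ± 6.77, and the kinase adaptor gene Atg14 from 11685 ± 1556 to 3956 ± 80.2. Of hypoxia genes 6 of 13 tested members rose (46.2%) and 1 fell (7.69%; none fell without E16.5 library 3). At a mean of 300 to 1000, 31.4% of all genes rose and 15.8% fell. Hif1a rose from 2794 ± 229 to 5099.6 ± 672 and the oxygen sensor Egln1 from 455 ± 64.1 to 1267 ± 49.

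Immediate early genes rose while heat shock genes fell. Of the former 14 of 18 rose (77.8%) and 1 fell (5.56%), against 18.4% and 25.6% of all genes with a mean of 1000 to 3000. Of the latter 1 of 7 rose (Hspb1) and 5 fell (71.4%, against 43.4% of all genes with a mean of 3000 or more). For Hspb1 54.9% of 50-base words are shared with other genes, so its count is uncertain. The immediate early transcription factor genes answer stimulation within minutes. Egr1 was at 2613, 3597 and 4600.0 at E16.5 and 12472, 11720.1 and 6508 at P0. Fos was at 3075, 3107 and 4902 at E16.5 and 10544, 9929 and 5864 at P0. Junb, another AP-1 subunit, rose from 834 ± 301 to 2629.8 ± 722. In Egr1 and Fos, as in the Sertoli sum and in Ccnd2, E16.5 library 4 was the highest of its stage and P0 library 4 the lowest of its own. Jund was the member that fell, from 5750.4 ± 508 to 1669 ± 237, and other genes overlap 52.6% of its exon bases. Of the chaperone genes Hsph1 fell from 16314 ± 1160.2 to 4312 ± 607, Dnaja1 from 62994 ± 2558 to 20964 ± 1739.7 (27.1% of 50-base words shared) and Dnajb1 from 13124 ± 578 to 5185 ± 527.

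On the list of steroid and thyroid receptors and glucocorticoid targets, 8 of 14 rose and the others did not pass on the table's scaling. The 57.1% that rose compare with 43.3% of all genes with a mean of 100 to 300. Nr3c1, the glucocorticoid receptor gene, was at 737, 789 and 943 at E16.5 and 2009.7, 2129.6 and 2036 at P0. The vitamin D receptor gene Vdr and the mineralocorticoid receptor gene Nr3c2 rose from 335 ± 43 to 797 ± 71 and 172 ± 13.9 to 312 ± 36.3. The glucocorticoid target genes Klf9, Sgk1 and Tsc22d3 (GILZ) rose, Klf9 from 105 ± 7.92 to 274 ± 27.5, Sgk1 from 1736 ± 86.5 to 2905 ± 303 and Tsc22d3 from 5083 ± 302 to 7517 ± 145.

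Nr1d1, the repressor REV-ERB alpha of the circadian clock, was at 714, 784 and 704 at E16.5 and 2729, 3577 and 3191 at P0. A list of 20 clock genes, drawn up after this was seen, had 9 that rose (45%) and 1 that fell (5%). Of all genes with a mean of 300 to 1000, 31.4% rose and 15.8% fell. Dbp, an output gene of the clock, was at 172, 141 and 151 at E16.5 and 412, 451 and 479 at P0. Bhlhe40 and Per2 rose from 70.5 ± 30.7 to 496 ± 114 and 151 ± 15 to 351 ± 24, Arntl from 1782 ± 166 to 2671 ± 56.4, and the Nr1d1 relative Nr1d2 fell from 7204 ± 1109 to 2917 ± 216. Arntl encodes BMAL1, the activator that REV-ERB proteins repress. The labels give no time of day for the collection.

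Interferon-related genes moved in both directions. Of 21 tested, 9 fell (42.9%) and 7 rose (33.3%), against 10.1% and 43.3% of all genes with a mean of 100 to 300. Isg15, a ubiquitin-like antiviral protein, was at 129, 87.4 and 162 at E16.5 and 14.1, 12 and 4.83 at P0 and fell (log2 fold change -3.56, SE 0.37, adjusted p 1.95e-07). Bst2 (tetherin) fell from 1799 ± 167 to 489 ± 59.9, the transcription factor genes Irf3 and Irf1 from 2055 ± 156 to 498 ± 125 and from 2874 ± 236 to 887 ± 124, and Ifi27 from 9238 ± 647 to 1492 ± 285. Rsad2 (viperin), an antiviral enzyme, was instead at 126, 100.4 and 98.9 at E16.5 and 442, 458 and 514 at P0 and rose (log2 fold change 2.11, SE 0.16, adjusted p 3.61e-09). The RNA sensor gene Ifih1 (MDA5) was at 4.77, 23.2 and 19.8 at E16.5 and 144, 207 and 167 at P0, and the class I antigen gene H2-K1 rose from 293 ± 58.4 to 706 ± 69.6 while its partner B2m fell from 1432 ± 84.5 to 693 ± 78.6.

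The core of the interferon-stimulated response element (GAAA, any 2 bases, then GAAA, searched on both strands in the 250 bases before the RefSeq start) was found in 8 of 16 promoters of this list and in 3.04% of all promoters. The promoters of Isg15, which fell, and Rsad2, which rose, both hold it. It is shown in capitals for chr4:156200819-156201068 and chr12:26456453-26456702, both GRCm38.p6 and minus strand, where the 3 overlapping matches of Isg15 form 1 run and the match of Rsad2 is on the opposite strand.
Isg15: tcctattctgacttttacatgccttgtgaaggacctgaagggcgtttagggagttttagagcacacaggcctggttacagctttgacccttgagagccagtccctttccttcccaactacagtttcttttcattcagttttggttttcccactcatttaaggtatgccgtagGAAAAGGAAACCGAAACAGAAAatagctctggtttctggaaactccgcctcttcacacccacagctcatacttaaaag
Rsad2: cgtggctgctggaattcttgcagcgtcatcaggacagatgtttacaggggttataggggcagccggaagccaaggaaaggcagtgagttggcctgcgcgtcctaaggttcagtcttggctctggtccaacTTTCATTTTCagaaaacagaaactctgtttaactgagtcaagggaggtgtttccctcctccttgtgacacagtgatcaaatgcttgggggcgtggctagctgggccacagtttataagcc

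The Ifitm genes, interferon-induced membrane proteins of which Ifitm1 and Ifitm3 mark early primordial germ cells, fell in 3 of 4 tested cases. This share was 75%, against 15.8% of all genes with a mean of 300 to 1000. Ifitm1 was at 1450.4, 1776 and 1938 at E16.5 and 30.8, 25 and 34.3 at P0. Ifitm2 was at 2911, 2785 and 3189 at E16.5 and 232, 209.8 and 176 at P0. Ifitm3 was at 615, 678 and 708 at E16.5 and 30.8, 29.9 and 23.2 at P0. The stages lay far apart in each. Ifitm10, of another locus, did not pass on the table's scaling (0.34) and was higher with TMM and equal totals (1.002 with the latter) and without E16.5 library 1 (0.52). For Ifitm2 49.2% of 50-base words are shared with other genes, and other genes overlap 40.9% of its exon bases.

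Counts in signalling lists are read against all genes of like level, of which 43.3% rose and 10.1% fell at a mean of 100 to 300, and 31.4% and 15.8% at 300 to 1000. In the BMP, TGF-beta, activin and Nodal list, of the former level, 20 of 36 tested members rose (55.6%) and 3 fell (8.33%), with a median log2 fold change of 0.53; without E16.5 library 3 or 4 or P0 library 3 only 1 fell. Among ligands, Nodal and its antagonist Lefty1, which act in fetal male germ cells, fell from 251 ± 79.3 to 90.5 ± 29.5 and 185 ± 51.1 to 72.4 ± 10.8, and Bmp7 from 1660.3 ± 169.8 to 855 ± 59.8. For Lefty1 22.2% of 50-base words are shared with other genes. The activin subunit gene Inhba rose from 49.9 ± 26.2 to 192 ± 34.5, its relative Inhbb from 266 ± 40.2 to 635 ± 190.5 and Tgfb2 from 74.6 ± 11.8 to 243 ± 9.38. Of the transducers, Smad1 was at 714, 839 and 753 at E16.5 and 1790.4, 1867 and 1725 at P0. Smad3 rose from 65.7 ± 15.7 to 117 ± 19.8.

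In the FGF and MAP kinase feedback list 11 of 17 tested members rose (64.7%, against 43.3% at that level) and 3 were lower on the table's scaling but not with equal totals, with a median log2 fold change of 0.93. Dusp6, a phosphatase induced by ERK signalling, was at 315, 424 and 686 at E16.5 and 1907, 1819 and 1176 at P0. It too was highest in library 4 within E16.5 and lowest in library 4 within P0. Dusp4, Spry4 and Etv4, likewise induced by it, rose, Dusp4 from 51.8 ± 15.1 to 333 ± 16.8, Spry4 from 28 ± 14.3 to 114 ± 23 and Etv4 from 46.1 ± 6.27 to 139.6 ± 26. The receptor genes Fgfr3 and Fgfr4 rose from 136 ± 40.3 to 303 ± 36.2 and 17.7 ± 9.30 to 84.8 ± 5.85. Sprouty and DUSP genes restrain the pathway that induces them.

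In the retinoic acid list, at a level where 31.4% of all genes rose and 15.8% fell, 12 of 20 tested members rose and 3 fell. The receptor genes Rarb and Rxrg rose from 55.5 ± 19 to 255 ± 27 and 132 ± 41.1 to 685 ± 79.5, and the importer gene Stra6 from 99.1 ± 15.7 to 338 ± 109.8. Dhrs3, which turns retinal back to retinol, rose from 54 ± 9.80 to 185 ± 16. Other genes overlap 38.4% of Rarb exon bases. The binding protein gene Crabp2 and the receptor gene Rxrb fell from 819 ± 42.1 to 282 ± 47.7 and 2647 ± 149 to 1045 ± 78.2.

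For WNT genes, of that level too, 11 of 27 tested members rose and 3 fell: the nuclear factor gene Lef1 was at 7343, 7761 and 6965 at E16.5 and 2858, 2429 and 2248 at P0 and fell, and Tcf7l2, of the same family, rose from 84.8 ± 10.5 to 518 ± 44.8. For Notch and Hedgehog 12 of 22 tested members rose and 1 fell (54.5% and 4.55%, against 43.3% and 10.1%). The Notch ligand gene Jag1 and the target Hes1 rose from 106 ± 14.2 to 289 ± 36.8 and 877 ± 28.9 to 1707 ± 119, and Dhh, the Hedgehog ligand of Sertoli cells, from 270.0 ± 89.8 to 548 ± 245. Other genes overlap 25.2% of Dhh exon bases. Of receptor kinases and AKT-mTOR genes 6 of 25 rose (24%, below the 31.4% at that level) and 4 fell. Pdgfrb and the mTOR partner Rptor fell from 476 ± 92.7 to 166 ± 12.5 and 1194 ± 123 to 548 ± 64.2, and the insulin receptor gene Insr rose from 152 ± 8.02 to 291 ± 42.6.

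Many developmental transcription factor genes rose from low levels. Of Hox genes, which pattern the body axis, 22 of 30 tested rose (73.3%) and 1 fell, with a median of 1.67 against 0.51 for all genes at their level. Hoxd11 and Hoxb6 had at most 3 reads in any E16.5 library, and with both at their lower bounds the median was 1.67. Hoxa11 and Hoxa10 rose from 2.48 ± 2.81 to 86.3 ± 23.7 and 7.80 ± 3.74 to 105 ± 28.9, and Hoxb5 from 2.95 ± 0.997 to 63.8 ± 5.53. Hoxa7, the exception, was at 434, 338 and 345 at E16.5 and 90.3, 76.6 and 92.2 at P0. Other genes overlap 35% of Hoxa11 and 20.4% of Hoxa7 exon bases, and without a strand setting the antisense transcripts of the Hox clusters cannot be told apart.

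Sox factors rose in 14 of 19 cases (73.7%), LIM homeobox and Pax factors in 14 of 19 (73.7%) and T-box factors in 11 of 15 (73.3%), against 43.3% at their level. On the table's scaling 3, 3 and 1 of them were lower, but with equal totals they were not. Pax6, the eye field factor, was at 17.2, 21.4 and 11.1 at E16.5 and 244, 202 and 227 at P0. Sox17, a factor of endoderm, vessels and human germ cells, rose from 24.2 ± 10.9 to 203 ± 17.3, and Tbx5, a limb and heart factor, from 19.2 ± 9.15 to 430.3 ± 36.7. Forkhead factors rose in 19 of 38 cases (50%) and fell in 3 (7.89%), near the 43.3% and 10.1% of all genes at their level. Foxl2, the ovarian factor, and Foxc1 rose from 4.42 ± 4.81 to 73.6 ± 10.7 and 7.97 ± 0.371 to 161 ± 22.1, while Foxr1 was at 6071, 5832 and 5586 at E16.5 and 973, 871 and 885 at P0 and fell (log2 fold change -2.68, SE 0.09, adjusted p 1.01e-12).

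Zinc finger genes named Zfp fell more often than they rose, with 85 of 348 that fell (24.4%) and 43 that rose (12.4%). Of all genes with a mean of 300 to 1000, 15.8% fell and 31.4% rose. Many of them encode KRAB repressors of transposons. Zfp773 and Zfp72 fell from 1220.2 ± 171 to 189 ± 23.1 and 489.9 ± 26.1 to 104 ± 20.9, and Zfp711, on the X chromosome, rose from 587 ± 47.8 to 1785 ± 117.

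Of the Rhox homeobox cluster, expressed in germ and Sertoli cells, 19 of 26 rose and 2 fell. Rhox13, a germ cell member, was at 609.8, 469.6 and 457 at E16.5 and 1378, 1498 and 1696 at P0. Rhox8, known from Sertoli cells, rose from 49.6 ± 17.1 to 514 ± 177. Rhox5 and Rhox10 fell, Rhox5 at 3838, 3754 and 4195 at E16.5 and 825, 662 and 852 at P0. Copies such as Rhox4a share 92.6% of their 50-base words, so single copies are uncertain. Mage genes, mostly on the X, rose in 10 of 18 cases (55.6%, against 43.3% of all genes with a mean of 100 to 300), and Maged1 fell from 73153 ± 6049 to 32210.2 ± 3042. Over the whole X chromosome 348 of 849 tested genes rose (41.0%) and 11.9% fell, against 32.4% and 16.2% of all genes, and chromosome 3 had like shares (41.1% and 12.2%).

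Of imprinted genes, 15 of 31 rose (48.4%) and 1 fell (3.23%), against 31.4% and 15.8% of all genes with a mean of 300 to 1000. Without E16.5 library 4 or P0 library 3 or 4 none fell, and without E16.5 library 1 the count that fell was 2. The growth suppressors Cdkn1c, Plagl1 and Grb10 rose, the last 2 from 111 ± 25.4 to 445 ± 37 and 1164 ± 64.4 to 3348 ± 193. Slc38a4, an amino acid transporter gene, was at 2557, 2379 and 2192 at E16.5 and 8445, 9582 and 9024 at P0. From the Dlk1 cluster Dlk1, Meg3 and Rian rose from 2307 ± 304 to 4391 ± 226, 407 ± 8.37 to 762 ± 66.3 and 154 ± 12.5 to 515 ± 16.4. H19, a maternally expressed noncoding RNA, was the member that fell, at 236, 316 and 325 at E16.5 and 157, 138 and 114 at P0. Among long intergenic noncoding RNAs 481 of 1222 tested rose (39.4%) and 160 fell (13.1%), and among annotated antisense RNAs 276 of 682 rose (40.5%) and 43 fell (6.31%). Of all genes tested 32.4% rose and 16.2% fell. In the 3 ranges of level with a mean under 300, 38.3% to 45.5% of all genes rose and 5.60% to 10.1% fell. The noncoding RNAs were not matched for level.

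**Figure D5:**
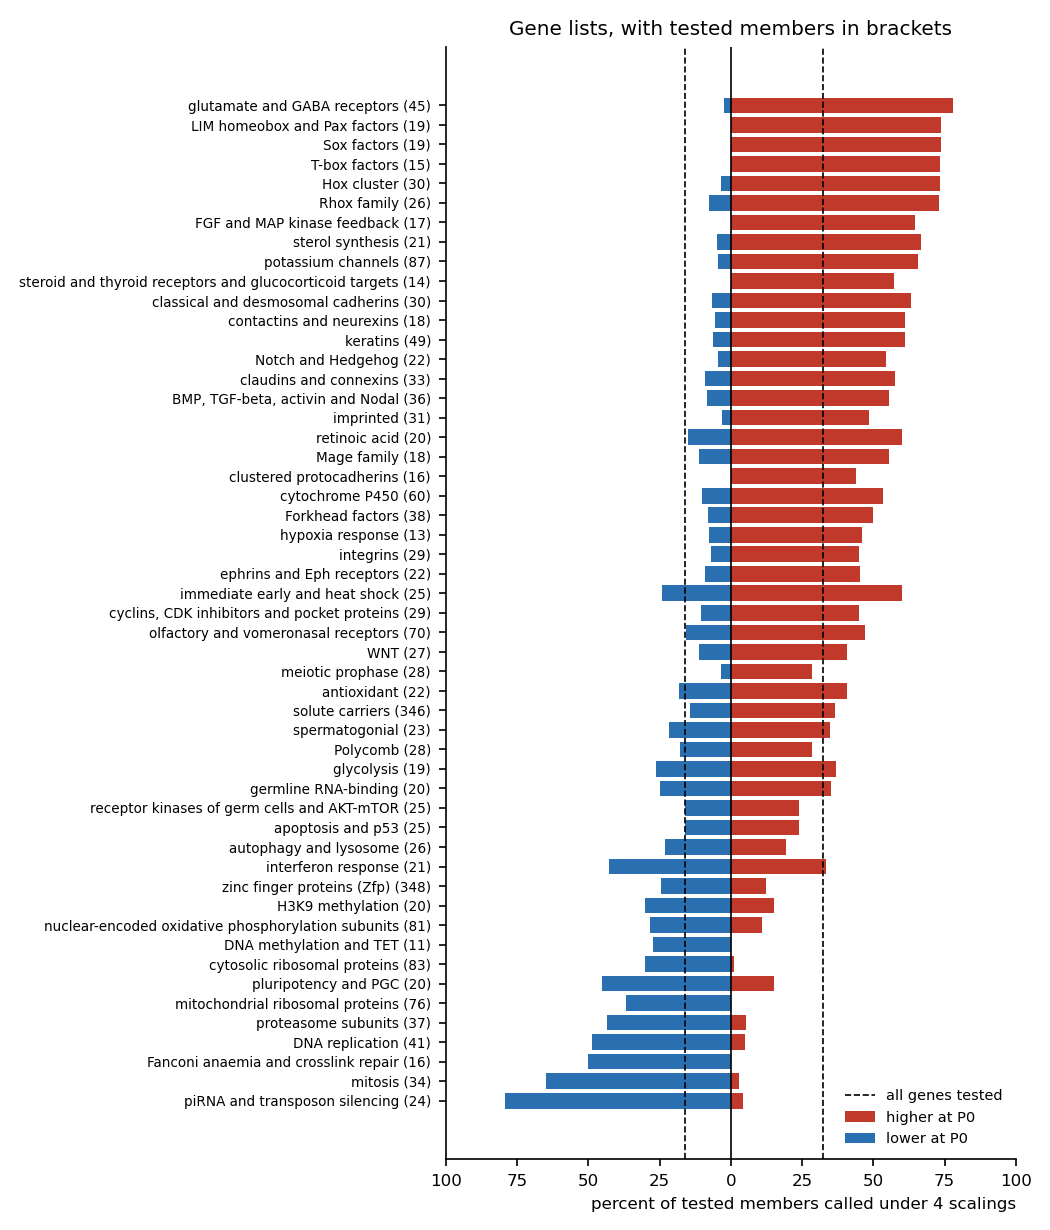
Percent of tested members of each gene list that rose (red, to the right) or fell (blue, to the left) under 4 scalings, with the number tested in brackets and the shares of all genes, 32.4% and 16.2%, as dashed lines. The piRNA list reaches 79.2% on the left, and glutamate and GABA receptors reach 77.8% on the right.

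Many genes of excitable cells rose. Of glutamate and GABA receptor genes 35 of 45 rose and 1 fell, and of potassium channels 57 of 87 rose and 4 fell. The metabotropic glutamate receptor gene Grm2 was at 55.3, 53 and 26.1 at E16.5 and 617, 564 and 604 at P0. Grik5, a kainate receptor subunit gene, was at 459, 446 and 420.3 at E16.5 and 2031, 1991 and 2113 at P0. Kcnma1, the large-conductance potassium channel gene, rose from 202 ± 23.8 to 1302 ± 52.9, while Kcnip2 fell from 1969 ± 178 to 319 ± 33.4. The synaptic adhesion gene Nlgn1 rose from 17.7 ± 5.04 to 129 ± 34.7, whereas the contactin gene Cntn6 fell from 1407 ± 214 to 413 ± 55.5. Most of these genes lay at low levels, where the median of all genes was above zero (0.51 for a mean of 30 to 100) and 45.5% of all genes rose, against 77.8% and 65.5% of these lists.

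Adhesion lists differed in the share that rose. Claudins and connexins had 19 of 33 that rose (57.6%) and 3 that fell, and cadherins 19 of 30 (63.3%) and 2, against 45.5% that rose at their level. Integrins had 13 of 29 that rose (44.8%), near the 43.3% of all genes at their level, and 2 that fell (1 without E16.5 library 3 or any 1 P0 library). Cldn18 and Cldn7, of tight junctions, rose from 178 ± 48.1 to 1186 ± 153 and 149 ± 42.5 to 951 ± 37.4, and Gja1 (connexin 43), which links Sertoli and germ cells, from 1382 ± 517 to 3378 ± 1587. Gja4 fell from 2753 ± 346 to 703 ± 37.2. Cdh12, a neural cadherin, was at 575, 524 and 556 at E16.5 and 30.3, 22.8 and 21.7 at P0 and fell (log2 fold change -4.43, SE 0.19, adjusted p 8.44e-12). Of integrins Itga4 rose from 29.2 ± 4.15 to 105 ± 36.2 and Itgb3 fell from 1294 ± 58.5 to 428 ± 45.6, while Lama4, of the basement membrane, rose from 216 ± 21.1 to 964 ± 79.6. Keratins rose in 30 of 49 cases (61.2%) and fell in 3 (6.12%), against 43.3% and 10.1% of all genes with a mean of 100 to 300. Olfactory and vomeronasal receptors rose in 33 of 70 (47.1%) and fell in 11 (15.7%), against 38.3% and 5.60% of all genes with a mean under 30.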

How the data were processed

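RNA was sequenced from 12 samples, 6 of them compared here, 3 per stage. Per the labels' protocols, RNA was extracted with a low-input kit and the SMART-seq v4 Ultra Low Input and TruSeq preparation kits were used. The submitters' processing notes list, without roles, bcl2fastq 2.20, cutadapt 1.18, HISAT2 2.1.0, featureCounts 1.5.2 and DESeq2 1.26.0 and the builds mm10 and GRCm38. The deposited signal is a read count per gene divided by the library's RLE size factor. All values (100%) were whole multiples of what 1 read is worth, within 0.001, so reads were recovered. The strand setting and how multiply matching reads were counted are not given in the sources used here.

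Columns were assigned to a stage by name. Their numbers, 1, 3 and 4, differ from the replicate numbers in the titles, so a column is known by stage only. Deviations of same-numbered libraries from stage means correlated at -0.01, 0.03 and -0.03, within the range of differently numbered ones (-0.06 to 0.06). No shared deviation was seen, but with 3 libraries per stage this cannot exclude that equal numbers share an origin. Log2 values correlated at 0.981 to 0.991 between libraries of 1 stage and at 0.911 to 0.916 across stages. Symbols matched 55141 identifiers (99.4%); where several shared one, the identifier with the highest mean was used. Positions come from GENCODE M21 (GRCm38), and promoters from RefSeq (GRCm38.p6).

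Log2(value + 1) was fitted with limma 3.58.1 (trend) in R 4.3.3 on the 6 libraries, with Benjamini-Hochberg adjustment over 21376 genes and a threshold of 0.05. On recovered reads edgeR 4.0.16 (quasi-likelihood) called 14550 genes and DESeq2 1.42.0 called 14020. In simulated data with the mean levels and factors of these libraries, limma recovered 99.5% of 200 genes changed 4-fold and called 7 unchanged genes. The simulated spread was assumed, the same for every gene, and not taken from these libraries. Only 200 of 21376 genes were changed, so the simulation does not give the recovery or false calls of this comparison. Reads carry no molecular identifiers, and the floors cover counting error only. SEs and p-values rest on the spread between libraries. Other settings tried were the scaling, the pseudocount, the filter, all 12 libraries in the fit, a replicate block and leaving out each library. Genes were named by rule: Morc1, the 12 lowest and 12 highest changes for a mean of 100 or more in the higher stage and the 8 and 8 for 2000 or more, leaving out predicted genes and any with overlapping stages, and from each list members with large changes or textbook roles. The members, lists and rule were chosen with earlier results of these data known, the clock and Fanconi lists and the split of immediate early from heat shock genes after seeing these values. Python 3.11.15, numpy 2.4.6, pandas 2.3.3 and matplotlib 3.10.9 were used for the rest.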

Additional observations from a re-analysis of the deposited data

How the results depend on the processing

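Of 14562 genes called, 7844 also changed at least 2-fold. The count was 14609 with median-of-ratios factors, 14633 with TMM, 15745 with equal totals and 13482 with all 12 libraries in the fit. A replicate block gave 14588 genes, and without 1 library in turn there were 13242 to 14363. The 10387 genes called in one direction under 4 scalings became 6615 with a mean of at least 100, where fewer genes were tested, and 9266 to 10220 without 1 library in turn. In each setting 0 of them were called in the opposite direction, with limma throughout. With equal totals the log2 fold change changed sign for Dnmt1 (0.0865), Gtsf1 (0.0345), Stra8 (0.0704), Uhrf1 (0.141) and Cyp17a1 (0.0042), none of which passed there. Without 1 library in turn Cyp17a1 ranged from -1.63 (without P0 library 1) to 0.61 (without E16.5 library 4), and it was 0.36 without P0 library 4. Of the named genes that rose or fell, Bmp7, H19, Lefty1, Nodal, Sall4 and Trim28 no longer passed with equal totals, but passed with the other scalings, without at least 1 of the libraries. No other sign changed among the 275 genes named. Genes near 10 normalized counts rest on about 10 to 20 reads per library, and changes there are resolved only when large. The genotype tag, the unknown pooling and the somatic signal are limits of every comparison between these stages.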
